A study of Oryctolagus cuniculus with 6 samples.

Results

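Müller glia span the whole thickness of the retina, and 10 genes that carry their homeostatic work were followed here. They handle glutamate (GLUL and SLC1A3), retinoid (RLBP1), potassium and water (KCNJ10 and AQP4), acid and bicarbonate (CA2, CA14 and SLC4A4), and lipid and secreted chaperone (ABCA8 and CLU). The genes were chosen by symbol for their roles in these cells, and all 10 were found among the 28788 genes of the deposited tables. The comparison was between 3 normal samples of rabbit retina and 3 samples of retina from rabbits with proliferative vitreoretinopathy (PVR), a scarring disease in which cells form contractile membranes on the retina. The PVR eyes of adult rabbits had received a scleral puncture, withdrawal of some vitreous body and an injection of platelet-rich plasma into the vitreous cavity. The sources used here say nothing of the strain, the sex, the interval after the injection, any treatment of the normal eyes, or whether a sample is a single eye or animal, so p-values measure only the spread between these samples. The label gives the tissue as retina and names no cell sort, so each value is a level in whole retina, and fewer Müller cells and less RNA per Müller cell cannot be told apart.

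Müller glia take up the glutamate that neurons release and turn it into glutamine. They also bind the retinoids of the visual cycle and carry potassium, water and bicarbonate away from active neurons towards the vitreous and the vessels. After retinal injury these cells are known to become reactive, a state long recognised by the filament protein GFAP, and some of their homeostatic genes are known to change in it. Several of these genes are made by other cells too. GLUL and CA2 are also expressed by oligodendrocytes, RLBP1 by the pigment epithelium, and AQP4, SLC1A3 and CLU by astrocytes.

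Levels are given as FPKM, the read count of a gene divided by its length and by the counted reads of the sample, which allows genes of different length to be compared. Changes are log2 fold changes of PVR over normal from edgeR's quasi-likelihood test on the raw counts, with Benjamini-Hochberg adjustment of the p-values across the 18697 genes that passed the filter on low counts. A gene passed the test at an adjusted p under 0.05. The samples had between 31904593 and 43035080 counted reads, and the TMM scaling factors lay between 0.953 and 1.04. Normal replicate 2 stood apart in lens genes, whose summed FPKM was 35164 there. The sum was 16.9 and 13.7 in normal replicates 1 and 3, and it was higher in PVR replicates 1, 2 and 3, at 330, 284 and 332. Results that rest on normal replicate 2 are given with and without it. The rod gene SAG, an arrestin, had an FPKM of at least 1341 in every sample. All 10 genes passed the filter. The lowest count among them was 279, for AQP4, and the lowest of the other 9 genes was 1563.

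The 10 genes went different ways in PVR. GLUL and RLBP1 fell and CLU rose, while the other 7 did not pass the test. Over all genes tested, 0.615% were lower and 1.09% were higher by the same criterion, 1.70% in all. The fitted log2 fold changes of the 10 genes ran from -1.11 to 1.07, with a median of -0.13, against a median of -0.01 over all genes tested. In 4 genes (GLUL, RLBP1, KCNJ10 and CA14) all PVR samples lay below all normal retina samples, and in 2 (ABCA8 and CLU) they lay above. Of all genes tested, 28.0% had such non-overlapping groups, 14.6% with PVR lower and 13.4% with PVR higher. Under the additional fold limit that the study's methods use, a log2 fold change beyond 1, GLUL and CLU passed and RLBP1 did not, and 1.01% of all genes tested passed.

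**Figure D1:**
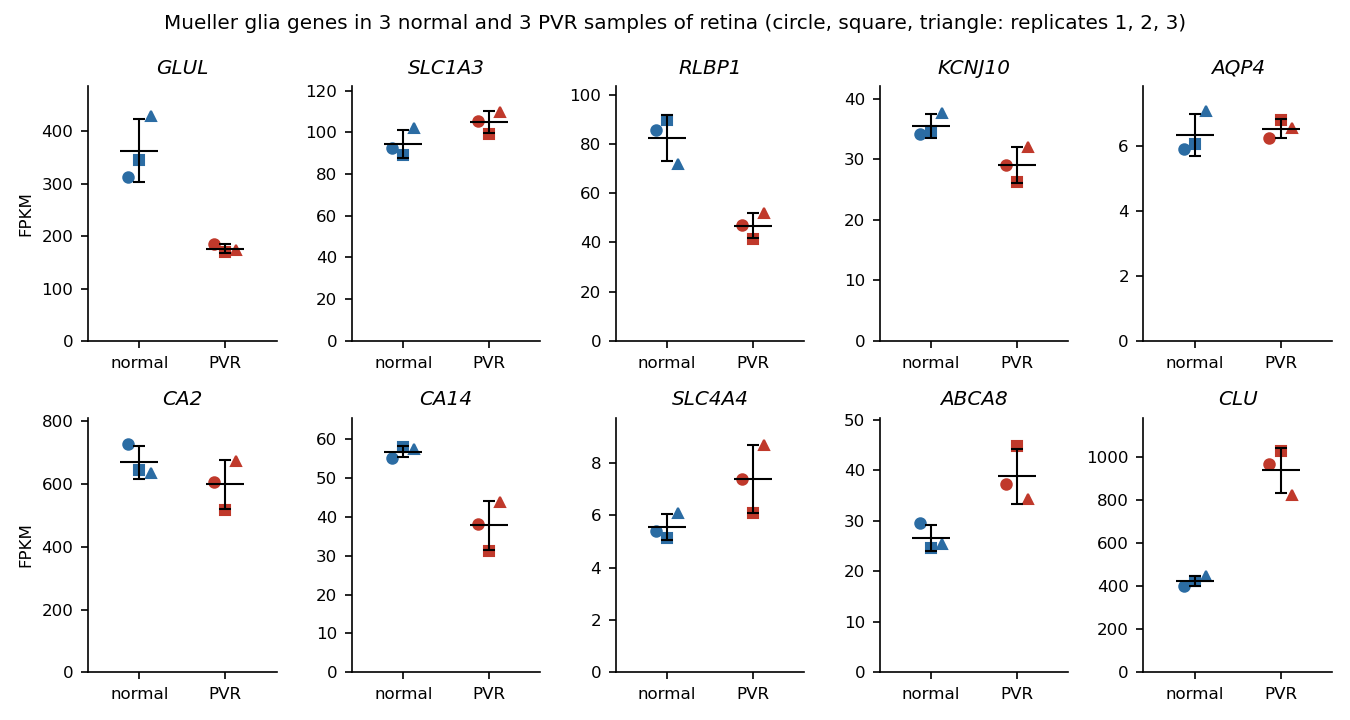
FPKM of the 10 Müller glia genes, 1 panel a gene, with the 3 normal retina samples in blue and the 3 PVR samples in red; the bar and whiskers are the mean and SD of 3 samples, and each axis starts at 0 with its own scale. GLUL and RLBP1 lie lower in PVR and CLU higher with no overlap, whereas SLC1A3, AQP4, CA2 and SLC4A4 overlap.

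GLUL encodes glutamine synthetase, the enzyme that joins ammonia to glutamate. Its FPKM was 313, 346 and 429 in the 3 normal retina samples and 186, 170 and 173 in those of PVR. The PVR samples were close together, with a coefficient of variation of 4.75% against 16.6% in the normal retina samples, and the highest of them was far below the lowest normal sample. Its log2 fold change was -1.11 (SE, the standard error, 0.12, 95% interval -1.40 to -0.82, adjusted p = 0.0125 from edgeR), which is a 2.16-fold lower level. Processed copies of GLUL are known from other mammalian genomes, and how the counting treated reads shared with such copies is not given in the sources used here. Without PVR replicate 1 the change was -1.15 and no longer passed (adjusted p = 0.106), and without normal replicate 2 it was -1.12 and passed (adjusted p = 0.0396).

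SLC1A3 encodes GLAST, the transporter that brings glutamate into Müller glia. Its FPKM was 92.3, 89.3 and 102 in the normal retina samples and 106, 99.2 and 109 in PVR. The groups overlapped, and the log2 fold change was 0.08 (95% interval -0.13 to 0.29, adjusted p = 0.63 from edgeR). The ratio of GLUL to SLC1A3 within a sample, which no scaling between samples can move, was 3.82 ± 0.413 (SD, n = 3) in the normal retina samples and 1.68 ± 0.095 (SD, n = 3) in PVR.

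RLBP1 encodes CRALBP, which binds 11-cis retinal and retinol in Müller glia and in the pigment epithelium. Its FPKM was 85.6, 89.6 and 71.9 in the normal retina samples and 47.0, 41.6 and 51.8 in PVR. No PVR sample reached the lowest normal sample. On the log2 scale the change was -0.89 (SE 0.13, 95% interval -1.19 to -0.58, adjusted p = 0.0294 from edgeR), which is a 1.85-fold lower level. Leaving out normal replicate 1, normal replicate 2, PVR replicate 1 or PVR replicate 2 ended the call, with adjusted p of 0.0916, 0.0916, 0.188 and 0.0665 and log2 fold changes from -0.89 to -0.80.

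Markers of the pigment epithelium were measured beside RLBP1, and 5 of the 7 tested had a negative and 2 a positive log2 fold change. RPE65, the retinoid isomerase of that tissue, had an FPKM of 51.0, 64.0 and 28.4 in the normal retina samples and 18.4, 20.6 and 18.2 in PVR (adjusted p = 0.058 from edgeR). TTR, a carrier of retinol and thyroid hormone, and LRAT passed the test as lower, with log2 fold changes of -1.56 (adjusted p = 0.0478) and -2.82 (adjusted p = 0.0459), and the other 5 tested markers did not pass. DESeq2 called 3 of the 7 lower and limma-voom called none. TTR failed without any 1 of normal replicates 1 and 2 and PVR replicates 1, 2 and 3, with adjusted p up to 0.227. BEST1, chosen after its values were seen, had 0.53 (adjusted p = 0.215). The summed FPKM of the 8 pigment epithelium markers was between 92.7 and 205 in the normal retina samples and between 48.7 and 59.6 in PVR. Both this sum and RLBP1 were highest in normal replicate 2, then in normal replicates 1 and 3, and then in PVR replicates 3, 1 and 2. The part of pigment epithelium RNA in the RLBP1 result was not tested. Without normal replicate 3, the normal sample lowest in both, the log2 fold change of RLBP1 was -0.98 (adjusted p = 0.0105).

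KCNJ10 encodes Kir4.1, the inward rectifier channel through which Müller glia pass potassium. Its FPKM was 34.2, 34.7 and 37.7 in the normal retina samples and 29.0, 26.2 and 32.0 in PVR. Every PVR sample was below every normal sample by a small margin. The log2 fold change was -0.36 (95% interval -0.58 to -0.13), and the adjusted p of 0.108 from edgeR did not pass.

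AQP4, the water channel that sits beside KCNJ10 in the endfeet of these cells, had an FPKM of 5.89, 6.06 and 7.07 in the normal retina samples and 6.24, 6.81 and 6.55 in PVR. The PVR samples lay within the range of the normal retina samples. Its log2 fold change was -0.03 (95% interval -0.37 to 0.32, adjusted p = 0.935 from edgeR), so a change of up to about that interval in either direction is not detectable with these samples. The ratio of KCNJ10 to AQP4 within a sample was 5.62 ± 0.245 (SD, n = 3) in the normal retina samples and 4.46 ± 0.548 (SD, n = 3) in PVR.

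CA2, the cytosolic carbonic anhydrase that converts carbon dioxide to bicarbonate, was the most abundant of the 10 genes in the normal retina samples. Its FPKM was 727, 644 and 634 in the normal retina samples and 605, 518 and 672 in PVR. The groups overlapped because PVR replicate 3 was above the normal replicates 2 and 3. On the log2 scale the change was -0.23 (95% interval -0.52 to 0.07, adjusted p = 0.334 from edgeR).

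CA14 is a carbonic anhydrase of the cell surface that works on the extracellular side of the membrane. Its FPKM was 55.0, 57.7 and 57.3 in the normal retina samples and 38.1, 31.2 and 43.8 in PVR. The normal retina samples were the closest together of all 10 genes, with a coefficient of variation of 2.62%, and all PVR samples were lower. The log2 fold change was -0.65 (95% interval -0.96 to -0.35), and the adjusted p of 0.0612 from edgeR just missed the threshold. With single samples left out the adjusted p lay between 0.0768 and 0.268 in 5 of the 6 cases, and it was 0.0244 without PVR replicate 3.

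SLC4A4 encodes NBCe1, which moves sodium together with bicarbonate. Its FPKM was 5.41, 5.13 and 6.08 in the normal retina samples and 7.37, 6.07 and 8.65 in PVR. PVR replicate 2 was level with the highest normal sample and the other PVR samples were above it. Its log2 fold change was 0.34 (95% interval 0.02 to 0.67, adjusted p = 0.22 from edgeR). The ratio of CA2 to CA14 within a sample was 11.8 ± 1.22 (SD, n = 3) in the normal retina samples and 15.9 ± 0.637 (SD, n = 3) in PVR. This describes these 2 genes, neither of which passed the test, and not intracellular and surface carbonic anhydrases in general.

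CLU encodes clusterin, a secreted chaperone that carries lipids and restrains the terminal complement complex. Its FPKM was 401, 426 and 449 in the normal retina samples and 967, 1026 and 822 in PVR. Each PVR sample was well above every normal sample. On the log2 scale the change was 1.07 (SE 0.10, 95% interval 0.83 to 1.31, adjusted p = 0.00733 from edgeR), which is a 2.10-fold higher level. Without PVR replicate 1 the change was 1.05 and no longer passed (adjusted p = 0.0949), and without normal replicate 2 it was 1.09 and passed (adjusted p = 0.0241). By p, CLU stood at position 26 of all genes tested, GLUL at 44 and RLBP1 at 118.

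ABCA8, a member of the ABC transporter family linked to lipid export, had an FPKM of 29.5, 24.7 and 25.5 in the normal retina samples and 37.2, 44.8 and 34.3 in PVR. All PVR samples were above all normal retina samples. The log2 fold change was 0.47 (95% interval 0.20 to 0.75), and the adjusted p of 0.0904 from edgeR did not pass. ABCA8 has close relatives such as ABCA6 and ABCA9, so reads shared between them may be split by the counting. ABCA6 had 80, 38 and 121 counts in the normal retina samples and 184, 277 and 217 in PVR, and ABCA8 had at least 5999 in each sample.

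**Figure D2:**
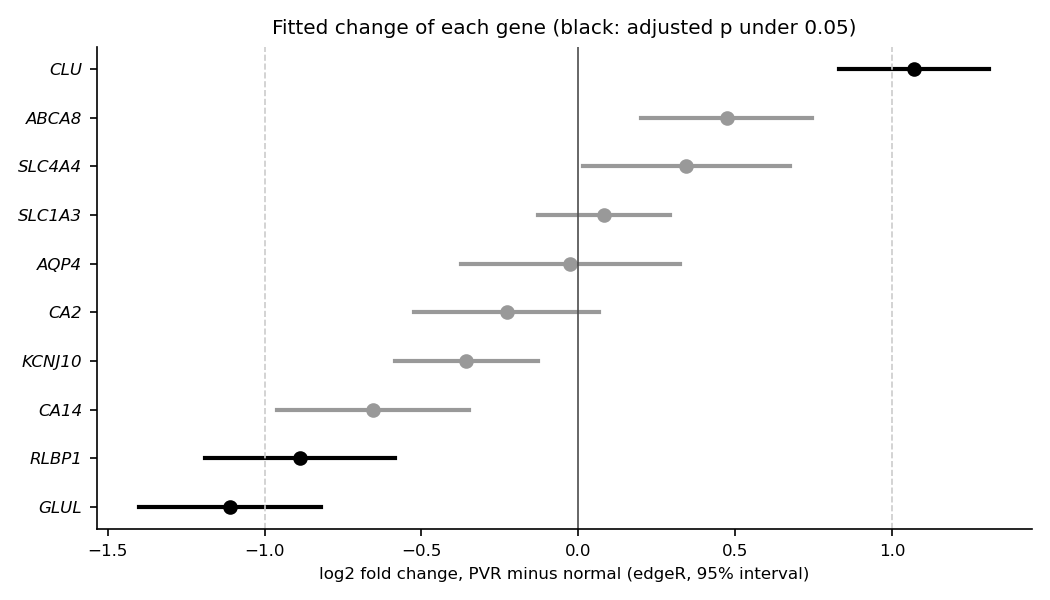
Log2 fold change of each of the 10 genes, PVR over normal, from edgeR with its 95% interval on the horizontal axis; black genes had an adjusted p under 0.05 and grey genes did not, and dashed lines mark a log2 fold change of 1 in either direction. CLU at 1.07 and GLUL at -1.11 form the ends of the range, and the intervals of SLC1A3, AQP4 and CA2 include 0.

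The order of the levels also differed between the groups. In the normal retina samples CA2 was highest with a mean FPKM of 668 ± 51.2 (SD, n = 3), followed by CLU with 425 ± 24.3 (SD, n = 3) and GLUL with 363 ± 60.0 (SD, n = 3). CLU and GLUL overlapped between samples there, as did SLC1A3 with RLBP1 and AQP4 with SLC4A4, and the other neighbours in the order did not. In PVR CLU was highest with 939 ± 105 (SD, n = 3), then CA2 with 598 ± 77.4 (SD, n = 3) and GLUL with 176 ± 8.36 (SD, n = 3), and none of these neighbours overlapped. From RLBP1 through ABCA8 and CA14 to KCNJ10 each gene overlapped with the next in PVR, so the order of these neighbours is not resolved. KCNJ10, with at most 32.0 in PVR, nevertheless lay below every PVR value of RLBP1 (at least 41.6) and ABCA8 (at least 34.3). SLC4A4 and AQP4 again overlapped at the low end.

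The ratio of CLU to GLUL within a sample was 1.28, 1.23 and 1.05 in the normal retina samples and 5.21, 6.03 and 4.76 in PVR. The summed FPKM of the 10 genes, to which CLU and CA2 gave the most in PVR, was between 1723 and 1820 in the normal retina samples and between 1954 and 2029 in PVR. All pairs set in ratio, here and above, were chosen after the values had been seen, and their ratios are descriptions without a test.

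**Figure D3:**
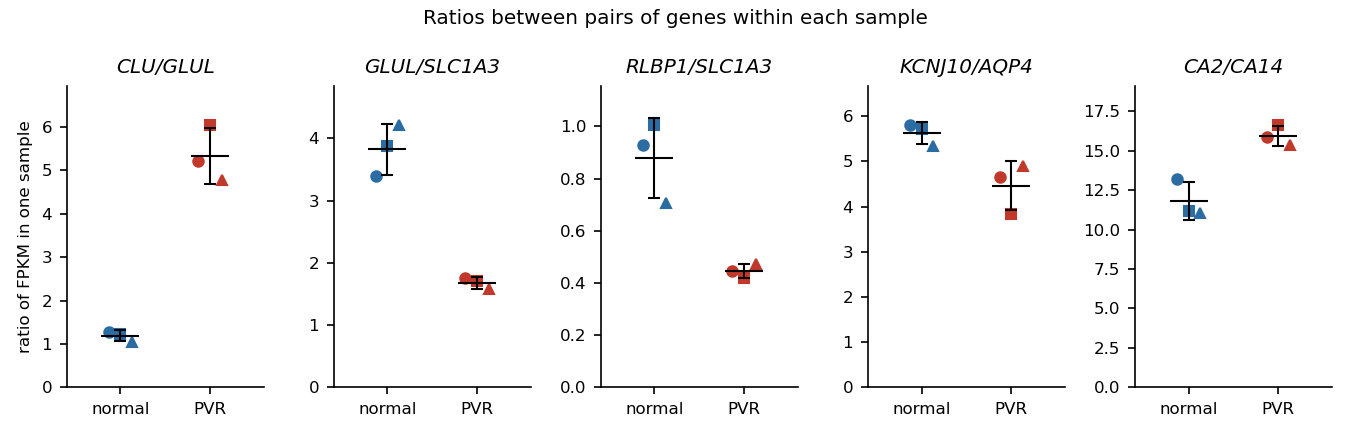
Ratio of the FPKM of 2 genes within the same sample, 1 panel a pair, for 3 normal (blue) and 3 PVR (red) samples, with mean and SD; each axis starts at 0. CLU over GLUL is between 1.05 and 1.28 in the normal retina samples and between 4.76 and 6.03 in PVR. The 5 pairs were chosen after the values had been seen, so the separation of the groups in them is no test.

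The PVR samples were not equally far from normal. PVR replicate 3 was the nearest to the normal mean on the log2 scale in 7 of the 10 genes (RLBP1, KCNJ10, AQP4, CA2, CA14, ABCA8 and CLU). PVR replicate 2 was the lowest of the PVR samples in 7 genes and the highest in the other 3, which were ABCA8, CLU and AQP4. In GLUL the PVR samples differed little from each other, and their log2 differences from the normal mean were -1.02, -1.17 and -1.11 in PVR replicates 1, 2 and 3.

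Genes that work beside the 10 were described by role. Of 12 further glutamate and glutamine genes, none passed edgeR's test in either direction, and their median log2 fold change was -0.07. None had an unadjusted p under 0.05, where 21.2% of all genes tested did, and neither DESeq2 nor limma-voom called any. The 2 most abundant of them were GOT1, an aspartate aminotransferase, with a log2 fold change of -0.04 (95% interval -0.26 to 0.17), and SLC38A3, a glutamine transporter, with -0.14 (95% interval -0.33 to 0.06).

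Of 15 tested retinoid genes, RDH11 and LRAT passed as lower and none as higher in edgeR, with a median log2 fold change of -0.42. All 15 had a negative log2 fold change, as did 9551 of the 18697 genes tested. Lower without overlap were 8 of the 15, against 14.6% of all genes tested. At an unadjusted p under 0.05 there were 7 lower and none higher, DESeq2 called 7 lower and limma-voom called none. RDH11, a retinol dehydrogenase also found in photoreceptors, had an FPKM of 15.2, 15.8 and 16.7 in the normal retina samples and 11.8, 11.6 and 12.6 in PVR. Its log2 fold change was -0.47 (SE 0.08, adjusted p = 0.0457 from edgeR). LRAT, which stores retinol as an ester in the pigment epithelium, had an FPKM of 10.8, 16.5 and 3.91 in the normal retina samples and 1.50, 1.27 and 1.91 in PVR. The abundant RBP3, the retinoid carrier between photoreceptors, glia and epithelium, had a log2 fold change of -0.42 (adjusted p = 0.0916), and ABCA4, the retinoid flippase of photoreceptor discs, had -0.10 (adjusted p = 0.494). RDH5 had at most 4 counts in any sample and was not tested. LRAT and RPE65 stand on the pigment epithelium list as well. RDH11 and LRAT each passed in 7 of 16 other settings. Without normal replicate 1, normal replicate 2, PVR replicate 1 or PVR replicate 2 neither passed, RDH11 also failed without normal replicate 3 and LRAT without PVR replicate 3, and their adjusted p reached 0.262 and 0.24.

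Neither the 11 tested potassium and water genes nor the 12 genes of the dystrophin scaffold that anchors KCNJ10 and AQP4 held a gene past the threshold in edgeR, and their median log2 fold changes were 0.02 and 0.01. At an unadjusted p under 0.05 there were 0 and 3 genes, limma-voom called none, and DESeq2 called DMD alone. The scaffold protein dystrophin, DMD, had an FPKM of 40.7, 35.0 and 41.2 in the normal retina samples and 61.8, 72.8 and 48.5 in PVR. Its groups did not overlap, with a log2 fold change of 0.58 (95% interval 0.24 to 0.91, adjusted p = 0.0926 from edgeR). DAG1, the dystroglycan that links it to the matrix, had -0.11 (adjusted p = 0.546). ATP1B2, a subunit of the sodium pump, had -0.13 (adjusted p = 0.394), and AQP11, an intracellular aquaporin, had 0.02 (adjusted p = 0.939). KCNJ16, the usual partner subunit of KCNJ10, had at most 3 counts in any sample and was not tested.

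Of 16 acid-base genes, 2 passed as lower and none as higher in edgeR, with a median log2 fold change of -0.06. At an unadjusted p under 0.05 there were 6 lower and 1 higher, DESeq2 called 4 lower and limma-voom called 1 lower. Both genes called by edgeR carry lactate with a proton rather than bicarbonate. SLC16A1, or MCT1, had an FPKM of 279, 259 and 167 in the normal retina samples and 119, 126 and 117 in PVR, and its log2 fold change was -1.04 (SE 0.19, adjusted p = 0.0487 from edgeR). SLC16A3, or MCT4, had an FPKM of 24.9, 23.2 and 19.0 in the normal retina samples and 12.5, 8.98 and 12.1 in PVR, and its log2 fold change was -1.07 (SE 0.17, adjusted p = 0.0359 from edgeR). Without normal replicate 1, normal replicate 2, PVR replicate 1 or PVR replicate 2 neither passed, and SLC16A1 also failed without PVR replicate 3, with adjusted p up to 0.254 for SLC16A1 and 0.177 for SLC16A3. BSG, the chaperone of both transporters, had 0.69 (adjusted p = 0.251) with widely spread samples. SLC16A1 is known from the pigment epithelium as well. Of the 7 tested markers of that tissue, 5 had a negative and 2 a positive log2 fold change, and its part in the SLC16A1 result was not tested. CA3 had 29030 counts in normal replicate 2, the sample high in lens genes, and at most 563 in any other sample.

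Of 11 tested lipid carrier and clusterin receptor genes, none passed in edgeR, and their median log2 fold change was 0.14. At an unadjusted p under 0.05 there were 3 higher and 2 lower, limma-voom called none, and DESeq2 called 2 higher (ABCA1 and ABCA6, named after their values were seen) and APOD lower. APOD, a lipid carrier of glia, had an FPKM of 89.7, 82.5 and 120 in the normal retina samples and 52.5, 64.8 and 34.8 in PVR, opposite in direction to CLU, with an adjusted p of 0.0718 from edgeR. APOE, the main lipid carrier of Müller glia, had a log2 fold change of 0.25 (95% interval -0.31 to 0.81, adjusted p = 0.572) and overlapping groups.

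Genes that mark Müller glia without being among the 10 had fitted changes close to 0. None of the 13 tested identity genes passed in edgeR, DESeq2 or limma-voom or had an unadjusted p under 0.05, and their log2 fold changes ran from -0.21 to 0.20 with a median of 0.03. DKK3, a secreted Wnt modulator abundant in these cells, had an FPKM of 111, 130 and 106 in the normal retina samples and 134, 103 and 154 in PVR. FRZB, a secreted Wnt antagonist, had 103, 101 and 111 in the normal retina samples and 114, 100 and 123 in PVR. The summed FPKM of the identity genes was between 512 and 548 in the normal retina samples and between 501 and 603 in PVR. RGR is on this list and on that of the retinoid genes.

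Of 8 tested genes of glial activation, 3 passed as higher and none as lower in edgeR, with a median log2 fold change of 1.19. By the same criterion 1.09% of all genes tested were higher. Higher without overlap were 5 of the 8, against 13.4% of all genes tested. There were 5 higher at an unadjusted p under 0.05, DESeq2 called 4 higher and limma-voom called 3. These were CP, the ferroxidase ceruloplasmin, with a log2 fold change of 3.23, SOCS3, the feedback inhibitor of cytokine signalling, with 3.22, and CEBPD, a transcription factor of the acute phase, with 2.99, and their adjusted p from edgeR were 3.45e-05, 0.0013 and 0.000652. GFAP had an FPKM of 20.0, 60.5 and 86.1 in the normal retina samples and 157, 164 and 138 in PVR, and its log2 fold change was 1.39 (adjusted p = 0.143). VIM, the filament vimentin, had -0.17 (adjusted p = 0.586). The rise of CP and CEBPD was known from an earlier analysis of these samples, so they are not independent evidence of the direction of this list.

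**Figure D4:**
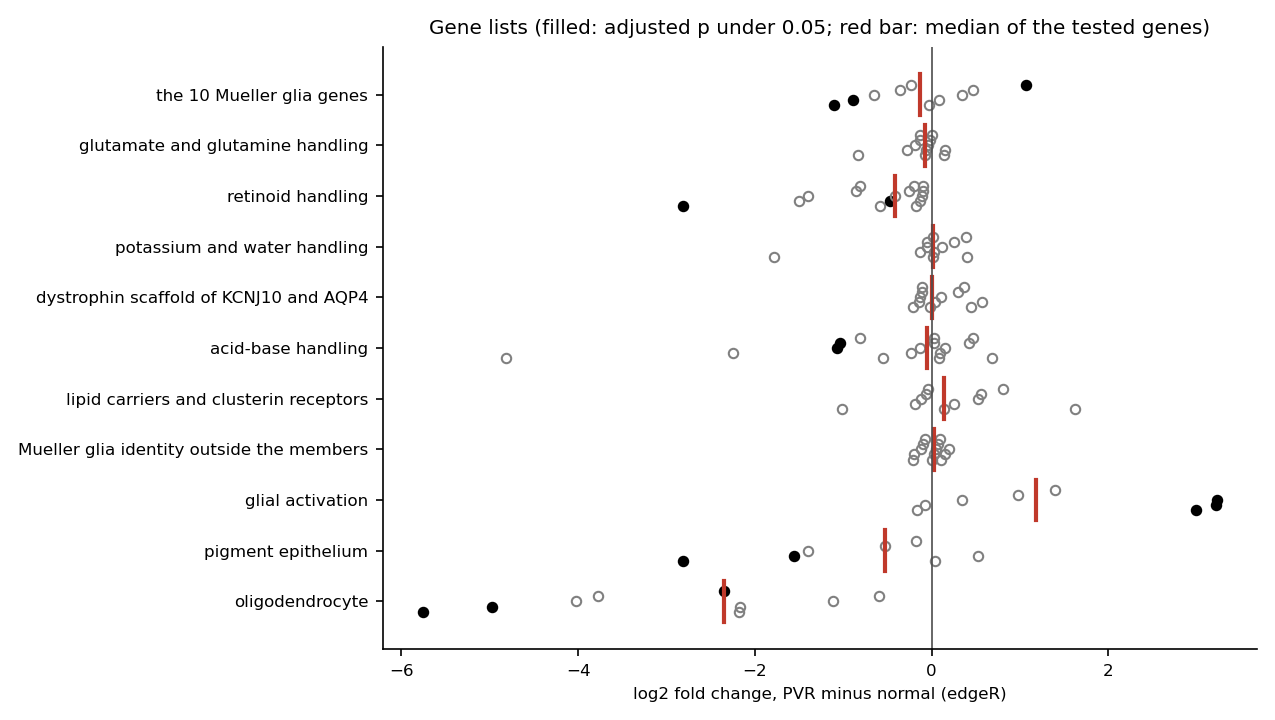
Log2 fold change, PVR over normal from edgeR, of every tested gene in the 10 Müller glia genes and 10 further gene lists; filled points had an adjusted p under 0.05 and red bars are the median of each list. The Müller glia identity genes lie between -0.21 and 0.20, whereas the 10 homeostatic genes spread from -1.11 to 1.07 and the oligodendrocyte genes lie below 0.

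Markers of the other cells that share these genes were measured beside them. All 9 oligodendrocyte markers were lower in PVR without overlap, as were 14.6% of all genes tested, and 3 passed the test, ERMN, MOBP and, outside the rule for named genes, MAG. All 9 were lower at an unadjusted p under 0.05, DESeq2 called 8 lower and limma-voom called 1. Each failed without normal replicate 2 or PVR replicate 1, MOBP and MAG also without PVR replicate 2, and MAG without PVR replicate 3, with adjusted p up to 0.157, 0.188 and 0.239 for ERMN, MOBP and MAG. Their summed FPKM was 89.3, 210 and 449 in normal replicates 1, 2 and 3 and 55.6, 53.8 and 58.5 in the PVR samples. GLUL was likewise lowest in normal replicate 1 and highest in normal replicate 3, whereas CA2 was highest in normal replicate 1. Without normal replicate 3 the log2 fold change of GLUL was -0.98 (adjusted p = 0.00895 from edgeR). The remaining normal replicates 1 and 2 still had higher oligodendrocyte sums than every PVR sample, so leaving 1 out is no test of this. The part of oligodendrocyte RNA in the GLUL result was not tested.

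None of the 7 astrocyte markers passed in edgeR or limma-voom, 2 had an unadjusted p under 0.05, and DESeq2 called both of these lower (ALDH1L1 and PAX2, named after their values were seen). Their summed FPKM was between 1904 and 2726 in the normal retina samples and between 1672 and 2205 in PVR, most of it ALDOC, and SLC1A2, the other abundant one, had a log2 fold change of -0.08 (adjusted p = 0.674). PAX2, an astrocyte transcription factor, had 31, 33 and 128 counts in the normal retina samples and 1, 0 and 4 in PVR (adjusted p = 0.0541). None of the 8 tested macrophage and microglia markers passed in edgeR or limma-voom, 4 were higher at an unadjusted p under 0.05 and DESeq2 called 3 higher (CD68, PTPRC and ITGAM, named after their values were seen), and the summed FPKM of the list was between 12.3 and 32.5 in the normal retina samples and between 34.8 and 51.2 in PVR. All 8 had a positive log2 fold change, with a median of 0.76. Higher without overlap were 6 of the 8, against 13.4% of all genes tested. C1QA and C1QB, the most abundant, had log2 fold changes of 0.66 (adjusted p = 0.394) and 0.53 (adjusted p = 0.582).

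Red blood cells also contain CA2. The red cell genes had a summed FPKM between 46.5 and 50.8 in the normal retina samples and between 19.7 and 33.8 in PVR, and none of the 3 tested passed in edgeR or limma-voom, 1 having an unadjusted p under 0.05 and HBA being called lower by DESeq2, with HBA at -1.08 (adjusted p = 0.0613) and HBB2 at -0.66 (adjusted p = 0.304). Of the neurons, no cone, bipolar, ganglion, or amacrine and horizontal marker passed in edgeR, limma-voom or DESeq2. At an unadjusted p under 0.05 there were 1 cone, 0 bipolar, 0 ganglion and 2 amacrine and horizontal genes. The rod gene SAG had a log2 fold change of -0.10 (adjusted p = 0.685), and the list medians were -0.25 for cones, -0.00316 for bipolar cells, -0.21 for ganglion cells and -0.05 for amacrine and horizontal cells. Of 8 endothelial markers, VWF and CDH5 passed as lower in edgeR, and the median log2 fold change was -2.44, with 5 negative and 3 positive. Their summed FPKM went the other way, between 93.0 and 96.6 in the normal retina samples and between 107 and 111 in PVR. VWF and CDH5 had log2 fold changes of -5.02 and -6.86 in edgeR. With limma on log2(FPKM + 1) these were -1.28 and -0.39, and neither passed. There were 4 markers lower without overlap and 1 higher, against 14.6% and 13.4% of all genes tested. DESeq2 called 4 lower (VWF, CDH5 and, named after their values were seen, CLDN5 and ERG), and limma-voom called CDH5 alone, with an adjusted p of 0.116 for VWF. The abundant KDR and FLT1 had log2 fold changes of 0.17 (adjusted p = 0.435) and 0.27 (adjusted p = 0.143). CDH5 failed without normal replicate 2, PVR replicate 1 or PVR replicate 2 (adjusted p up to 0.188) and VWF without PVR replicate 1 (adjusted p = 0.106). None of the 10 tested lens genes passed in edgeR, DESeq2 or limma-voom, and 2 had an unadjusted p under 0.05. The part of these cells in the values of the 10 genes was not tested.

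**Figure D5:**
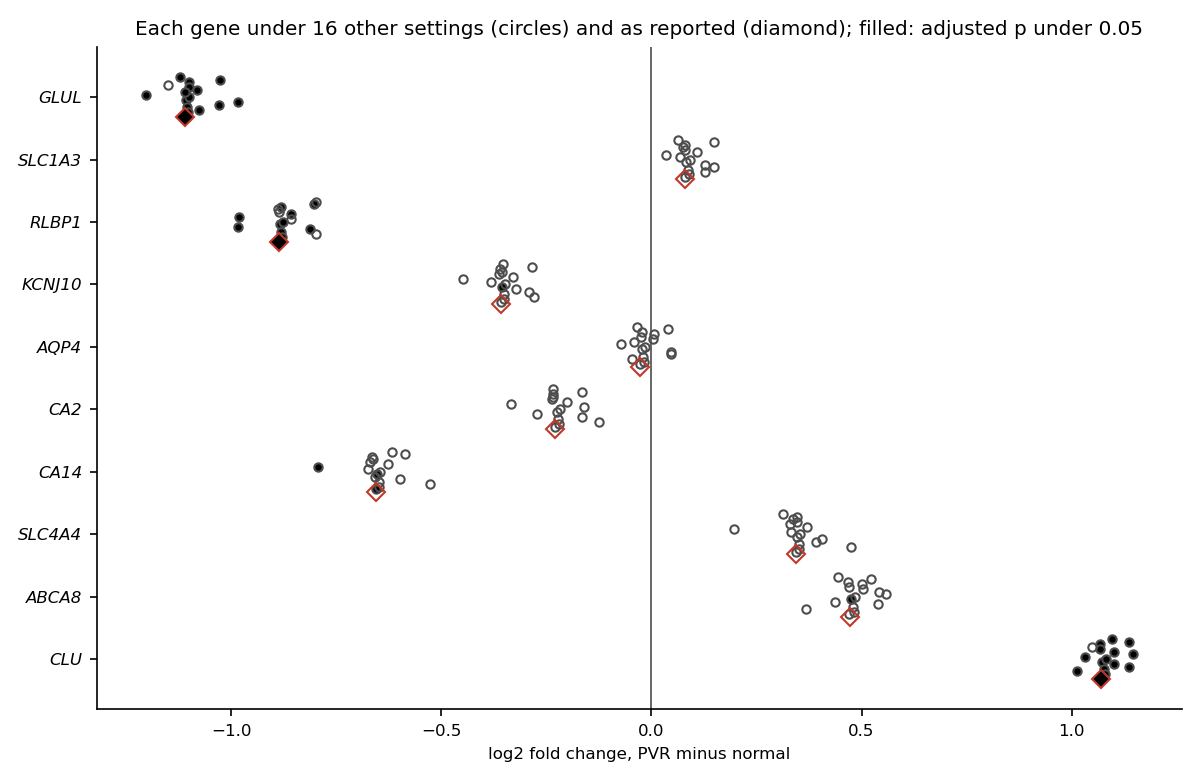
Log2 fold change of each of the 10 genes as reported (diamond) and under 16 other settings of the test, scaling, filter, unit and samples (circles); filled symbols had an adjusted p under 0.05. GLUL and CLU stay filled in 15 of the 16 settings and RLBP1 in 11, and AQP4 alone crosses 0.

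GLUL and CLU passed in 15 of 16 other settings and failed only without PVR replicate 1. In that setting 0.0832% of all genes tested were called higher and 0.0312% lower, and none of the 10 genes passed. DESeq2, the tool named in the study's methods, called 4 of the 10 genes lower (GLUL, RLBP1, KCNJ10 and CA14) and 2 higher (CLU and ABCA8), where it called 3.33% of all genes lower and 5.43% higher.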

How the data were processed

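Total RNA of the 6 retina samples was extracted and polyadenylated RNA was sequenced. The labels name the VAHTS Universal V6 kit and the paper's methods name NEBNext Ultra II. The authors trimmed the reads with fastp, aligned them to OryCun2.0 with HISAT2 and deposited raw counts per gene made with htseq-count. The strand setting and annotation release are not given in the sources used here. The authors also deposited FPKM values. Counts divided by FPKM and by the sample total gave the same gene length in every sample (largest relative difference 4.24e-09). Columns were matched to samples by name.

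Counts were analysed with edgeR 4.0.16 in R 4.3.3 (filterByExpr, TMM, quasi-likelihood test, condition as the only term), which tested 18697 of 28788 genes. Standard errors are the log2 fold change divided by the root of F, and intervals are at 95%. Alternatives were DESeq2 1.42.0, limma 3.58.1 (voom, or log2 of FPKM plus 1 or 0.1), RLE and upper-quartile factors, no filter, at least 10 counts in every sample, a replicate block, removal of 20 lens genes, and each sample left out. The scripts were tested on simulated data. Overlap between groups was judged on scaled CPM.

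The 10 genes and 20 further lists were chosen with earlier results of these data known. The counts over the rod list are not reported here. Genes named are the 10, and from each list the 2 most abundant and up to 4 (cell type lists, 2) with the smallest p past the threshold. Of the list genes, RDH5, PDE6B, C1QA and C1QB were matched through RefSeq gene identifiers of mOryCun1.1, used for names only. ABCA10, SOX8, GUCA1C, C1QC, LIM2, HBB, HBA1 and HBA2 were not matched. No positions or sequences are given, since no genome of OryCun2.0 was used. Python 3.11.15 with pandas 2.3.3 and matplotlib 3.10.9 made the tables and figures. Depth limits only counting error, since reads carried no molecular identifiers.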

Additional observations from a re-analysis of the deposited data

How the results depend on the processing

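With DESeq2, 4 of the 10 Müller glia genes were lower and 2 higher, in place of 2 and 1, and 667 of all genes were lower and 1088 higher, in place of 115 and 203. With single samples left out, the number lower lay between 0 and 3 and the number higher between 0 and 1, the zeros both without PVR replicate 1. The shares of all genes tested lay between 0.0312% and 1.3% lower and between 0.0832% and 2.69% higher in these fits. The median of the 10 genes moved by less than the spread between samples in all 16 settings, between -0.19 and -0.06. AQP4 changed sign to 0.0034 with upper-quartile factors, 0.040 on log2(FPKM + 1) and 0.046 on log2(FPKM + 0.1). With single samples left out AQP4 lay between -0.073 and 0.048, above 0 without normal replicate 3 or PVR replicate 1, and it passed the test in no setting. CA14 also passed without the filter on low counts (adjusted p = 0.0489 from edgeR).

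Same-numbered samples had correlations of -0.01, 0.07 and 0.04 in their deviations from the group means. These were the highest for normal replicates 2 and 3 but not for normal replicate 1. With 3 samples a group, pairing by replicate number can be neither shown nor excluded in this way. With the replicate block, 1 of the 10 genes was lower and 1 higher, RLBP1 having an adjusted p of 0.0856 from edgeR, and 0 pathway genes and 3 cell type markers were lower. The block also left fewer calls among all genes tested, 0.16% lower and 0.332% higher, against 0.615% and 1.09% without it.

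Pathway genes lower in PVR numbered 4, all of them outside the 10. The number was 12 with DESeq2 and 1 with limma-voom and on both FPKM scales, and lay between 0 and 6 with single samples left out, 6 without normal replicate 3 and 0 without normal replicate 1 or 2 or PVR replicate 1 or 2. The share of all genes called lower moved too. It was 0.615% as reported, 3.33% with DESeq2, 0.396% with limma-voom, and 0.294% and 0.353% on log2(FPKM + 1) and log2(FPKM + 0.1). Without normal replicate 3 it was 1.3%. Pathway genes higher numbered 0, but 3 with DESeq2 and up to 1 with samples left out (without PVR replicate 3). In these settings 1.09%, 5.43% and 2.69% of all genes tested were higher. Cell type markers lower numbered 7. The number was 19 with DESeq2, 2 with limma-voom, 12 with no filter, 4 with at least 10 counts in every sample, 1 on log2(FPKM + 1) and 3 on log2(FPKM + 0.1), and lay between 0 (without PVR replicate 1) and 10 (without normal replicate 1) with samples left out. All genes tested were called lower at 0.517% with no filter and 0.478% with at least 10 counts in every sample. The share was 0.0312% without PVR replicate 1 and 0.252% without normal replicate 1. Markers higher numbered 0, but 3 with DESeq2 and up to 6 with samples left out, without normal replicate 2. In that last setting 0.292% of all genes tested were higher. Lens genes had a summed FPKM of 16.9 and 13.7 in normal replicates 1 and 3 and of 330, 284 and 332 in PVR replicates 1, 2 and 3. Their part in the count without normal replicate 2 was not tested. CP, SOCS3 and CEBPD passed in all 16 settings.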
